A study of Mus musculus with 6 samples.

Results

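Genes of purine and pyrimidine nucleotide metabolism were followed in the mouse parotid gland, a salivary gland made mostly of enzyme-secreting acinar cells. The genes were chosen by name from known pathways: de novo synthesis, salvage, deoxynucleotide supply and breakdown. Of 42 listed genes, 41 matched a row among the 52636 genes of the count tables. Pnp, the purine nucleoside phosphorylase, did not match by its gene identifier and was not analysed here. A row annotated Gm49342, which lies across the Pnp locus, held 86, 58 and 80 counts in untreated and 72, 65 and 73 in irradiated libraries.

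The mice were FVB, an inbred strain, with an age of 28 days listed for both groups. The untreated group held 3 libraries and the irradiated group 3 libraries, from mice given 5 Gy of radiation once. That dose stands in the treatment text of all 6 samples and was read as meant for the irradiated ones. How long after irradiation the glands were collected was not stated, nor whether the libraries are from different mice, so the spread behind each p-value is that between libraries and may be technical. Each library is RNA of a whole tissue, in which fewer cells of a type and less RNA per cell cannot be told apart.

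Cells build purines on phosphoribosyl pyrophosphate (PRPP), step by step up to inosine monophosphate, from which the adenine and guanine nucleotides branch. Pyrimidines are built as a free ring that is joined to PRPP afterwards, and salvage enzymes return free bases and nucleosides to both pools at lower cost. Ribonucleotide reductase turns ribonucleotides into the deoxynucleotides of DNA, a step most active in dividing cells and also needed for repair of damaged DNA.

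Each library held 7108359 to 15036193 counts in genes, and the 41 genes together took 0.0479% to 0.0660% of them. Irradiated replicate 2 stood apart, with the lowest depth, 10.01% of its reads not aligned against at most 4.33% elsewhere, and 184 reads set aside for low alignment quality against at least 342749 elsewhere. It also held Prol1, a gene of the acinar list, at 442.4 CPM (counts scaled to library size and composition), against 32.8 to 40.9 in the other libraries. The 7 acinar markers, Bpifa2 and Amy1 among them, summed to between 356519 and 470572 CPM in every library, so the labelled tissue was matched by its markers. Summed skeletal muscle markers stood at 175.4 CPM in irradiated replicate 3 and at 473.3 to 698.2 in the other libraries. Counts of single nucleotide metabolism genes ran from 8 to 799 per library, and 3 genes, Upp1, Nt5e and Ampd3, had under 20 counts in at least 1 library.

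Of the 41 genes, 1 rose after irradiation, Prps2, and 0 fell. Calls are those of the quasi-likelihood test of edgeR, with p-values adjusted by Benjamini-Hochberg over 12885 genes. Over all genes 0.652% were called higher and 0.349% lower. At an unadjusted p under 0.05, 5 genes were higher (Prps2, Dpyd, Rrm1, Rrm2 and Tyms) and 0 lower, against 7.51% and 7.46% of all genes. DESeq2 called 1 gene higher, again Prps2, and 0 lower, against 0.94% and 0.544% of all genes. With limma-voom 0 were called in either direction, against 0.155% and 0.0388% of all genes. The 3 irradiated libraries lay above the 3 untreated ones for 8 of the 41 genes (19.5%), against 10.6% of all genes: Prps2, Pfas, Aprt, Umps, Dpyd, Tyms, Dctd and Dck. They lay below for 0 of the 41, against 10.6% of all genes. The median log2 fold change of the 41 genes was 0.05, with 25 positive and 16 negative, and that of all genes was -0.01, with 49.1% positive.

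**Figure D1:**
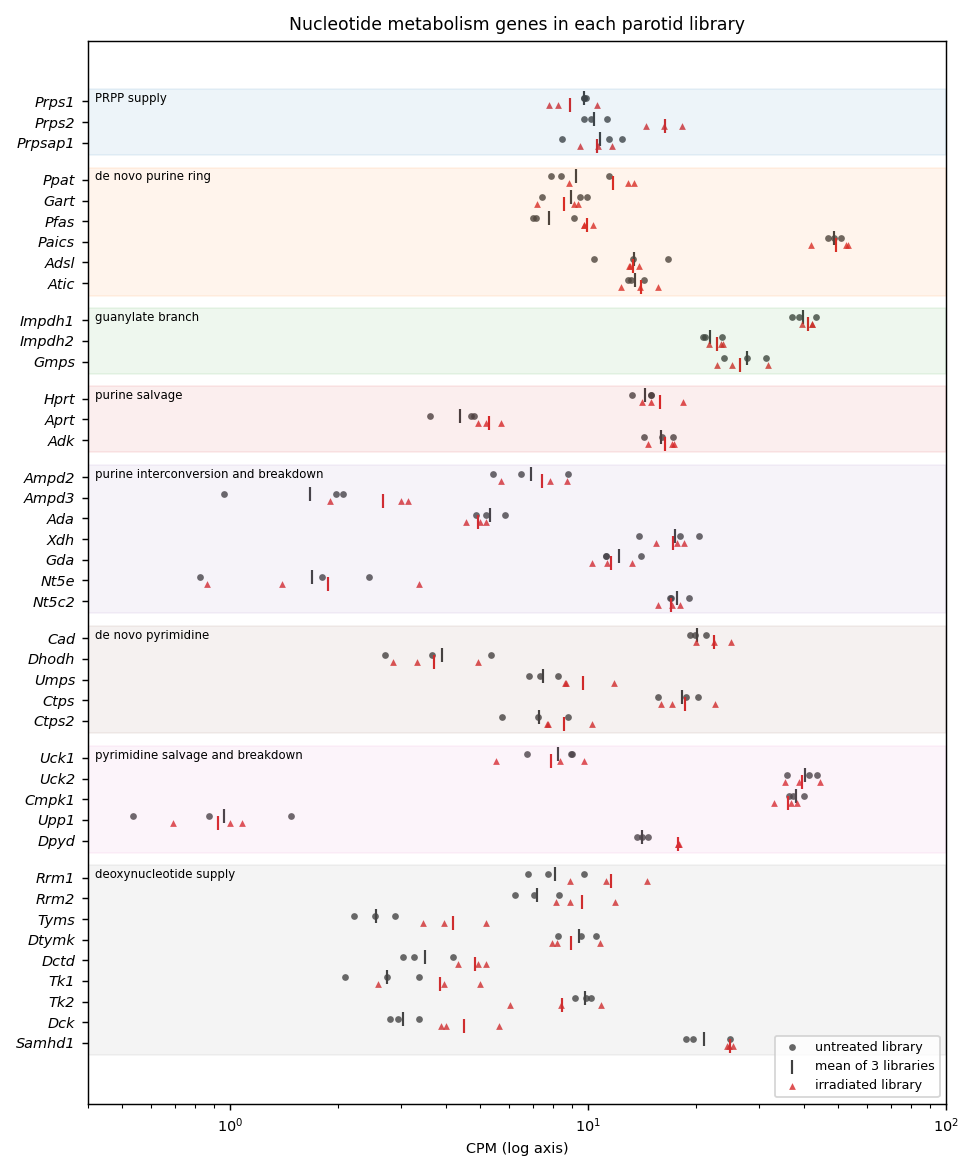
CPM of each of the 41 genes (log axis) in the 3 untreated (circles) and 3 irradiated (triangles) libraries, with vertical ticks at the group means and genes grouped by role. Most genes overlap between the groups, and Prps2, Dpyd and Tyms are among the 8 whose irradiated libraries all lie higher.

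**Figure D2:**
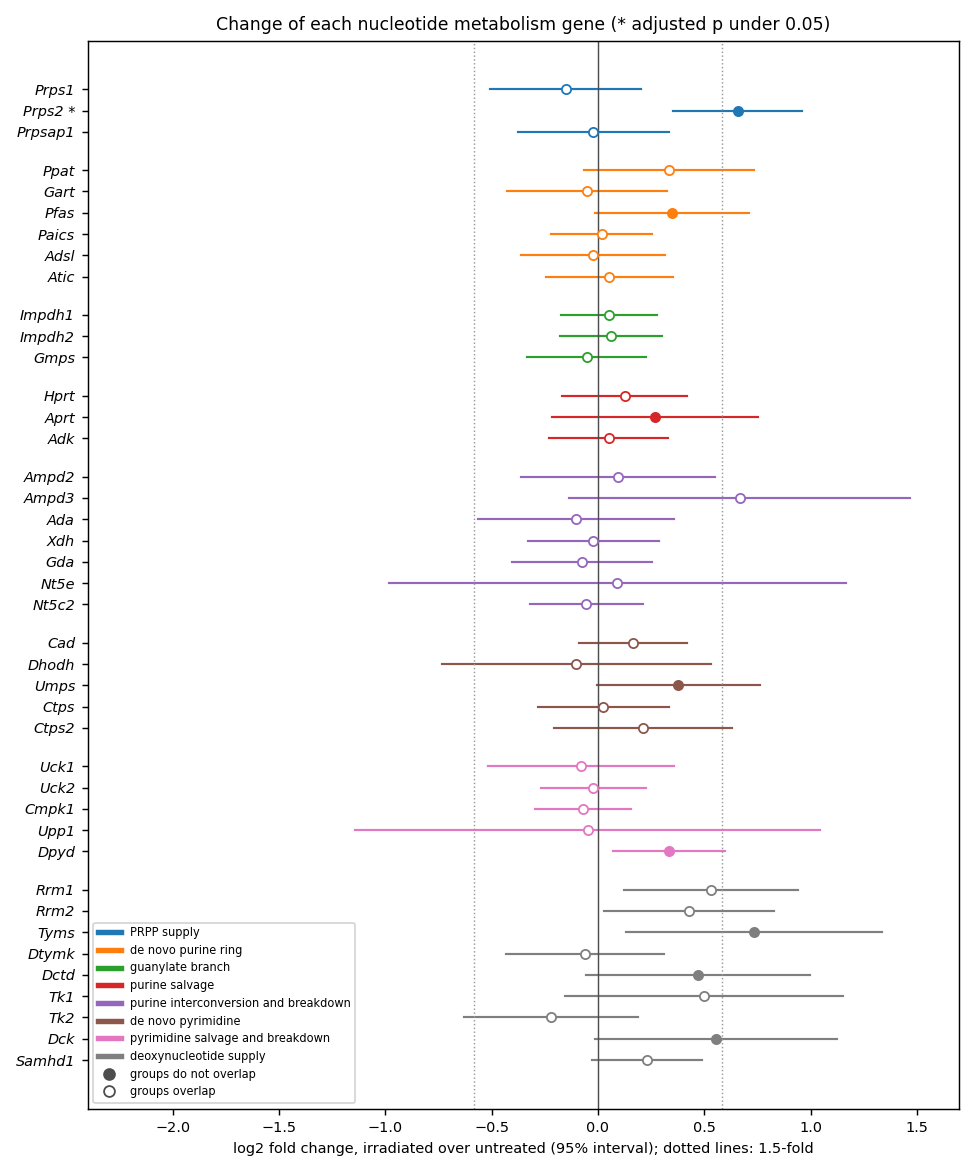
Log2 fold change, irradiated over untreated, of each of the 41 genes with its 95% interval from the edgeR fit. Filled points mark the 8 genes whose groups do not overlap, the asterisk marks Prps2 (adjusted p = 0.0326), and dotted lines mark 1.5-fold, within which 23 intervals lie entirely.

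For most steps the data bound the change rather than show one. The 95% interval of the fold change lay within 1.5-fold in either direction for 23 of the 41 genes, as the plot of changes with intervals shows. Per kilobase of transcript, the most abundant members in untreated glands were Paics at 19.6 ± 0.857 CPM per kilobase (SD, n = 3), Impdh1 at 15.3 ± 1.23, Cmpk1 at 12.0 ± 0.587, Impdh2 at 11.8 ± 0.812 and Hprt at 11.2 ± 0.763. Paics lay above Impdh1, and Impdh1 above Cmpk1, in every untreated library, while Cmpk1, Impdh2 and Hprt overlapped. Of 40 neighbouring pairs in this order, 33 overlapped in range. The lowest levels were those of Ampd3 at 0.407 ± 0.150, Nt5e at 0.423 ± 0.205 and Upp1 at 0.754 ± 0.376 CPM per kilobase.

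PRPP is the base on which purines are built and is joined to the finished pyrimidine ring. Prps1 and Prps2 encode isoforms of PRPP synthetase and lie apart on chromosome X, and Prpsap1 encodes a protein that associates with the synthetase. Prps2 (ENSMUSG00000025742; chromosome X, 167346322 to 167382749, build mm10) stood at 11.3, 9.71 and 10.2 CPM in the untreated libraries and at 18.3, 16.2 and 14.5 in the irradiated ones, with no overlap. Prps2 rose 1.58-fold, a log2 fold change of 0.66 (SE 0.15, edgeR adjusted p = 0.0326). Prps1 (chromosome X, 140456613 to 140476140) stood at 9.71, 9.71 and 9.87 CPM untreated and at 8.26, 10.6 and 7.77 irradiated, with groups that overlapped. Its log2 fold change was -0.15 (SE 0.17), with a 95% interval from -0.51 to 0.20. Prpsap1 stood between 8.48 and 12.4 CPM untreated and between 9.50 and 11.7 irradiated, a log2 fold change of -0.02 (SE 0.17).

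The call of Prps2 was near the threshold. It was lost without untreated replicate 2 (adjusted p = 0.102), untreated replicate 3 (0.0764), irradiated replicate 1 (0.194) or irradiated replicate 2 (0.0682), with the length and GC correction (0.0631), with limma-voom (0.0891), with the replicate number as a block (0.0799) and without robust shrinkage (0.0846), while its log2 fold change stayed between 0.56 and 0.80 in all 16 alternative settings.

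Of the counts of both synthetase genes, Prps2 held 53.7%, 50% and 50.8% untreated and 68.9%, 60.5% and 65.1% irradiated. The means were 51.5% ± 1.96 and 64.9% ± 4.20 (SD, n = 3), and an exact two-sided permutation test gave p = 0.1, the smallest that 3 against 3 libraries allow. Among 6 pairs of related genes compared in this way the adjusted p was 0.6 for this pair, and the shares of the other pairs overlapped between the groups. Impdh2 held 35.6% ± 0.637 of the counts of Impdh1 and Impdh2 in untreated and 35.8% ± 1.66 in irradiated libraries (SD, n = 3). All these shares are of counts without correction for transcript length, which is 3699 bases for Prps2 and 1965 for Prps1. Per kilobase, Prps2 stood at 2.81 CPM and Prps1 at 4.97 in untreated libraries, and at 4.42 and 4.51 in irradiated ones.

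**Figure D3:**
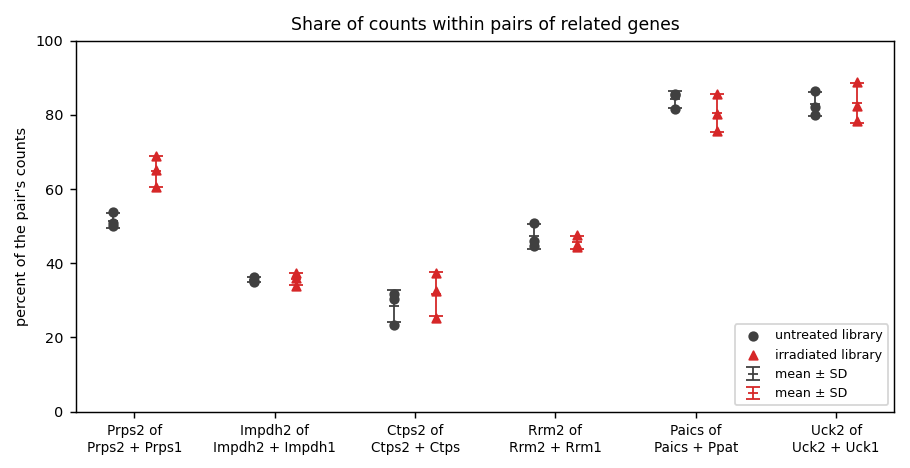
Share of a pair's counts held by the first-named gene, in percent, for 6 pairs of related genes in 3 untreated (circles) and 3 irradiated (triangles) libraries, with mean ± SD. The share of Prps2 runs from 50% to 53.7% untreated and from 60.5% to 68.9% irradiated, and the other pairs overlap.

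The 100 bases before the annotated start of each synthetase gene are shown because edgeR called Prps2 higher and did not call Prps1. They come from RefSeq (build GRCm38.p6), 5′ to 3′ on the gene's strand, at chrX:140456503-140456602 (plus strand) for Prps1 and chrX:167382750-167382849 (minus strand) for Prps2. Capitals mark matches to the 4 motifs searched on both strands in windows from 250 bases before to 50 after the start: CCAAT, the E-box CACGTG, and the E2F-type motifs TTTGGCGC and TTTCCCGC.
Prps1: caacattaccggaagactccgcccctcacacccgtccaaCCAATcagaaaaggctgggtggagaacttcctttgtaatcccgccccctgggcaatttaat
Prps2: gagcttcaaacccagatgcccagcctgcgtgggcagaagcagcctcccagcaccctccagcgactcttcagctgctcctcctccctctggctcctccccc
The Prps1 stretch holds a CCAAT box whose first base lies at position -61, a motif found in 37.4% of 32817 windows of all genes. The Prps2 stretch holds none of the 4 motifs. Further on, at position 34 after its start, the Prps2 window holds TTTCCCGC, found in 1.07% of all windows. The 38 genes present in the promoter table have 57 windows, and 2 of these (3.51%) hold it, the other being that of Ppat. These matches are letters in a window, not known binding sites.

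The de novo purine ring is built by Ppat, which commits PRPP to the pathway, and then Gart, Pfas, Paics, Adsl and Atic. Of these 6 genes 0 passed in either direction, with 0 at an unadjusted p under 0.05, and their median log2 fold change was 0.03. Paics, a bifunctional enzyme of the middle steps, stood at 50.9, 46.7 and 48.6 CPM untreated and at 53.2, 42.0 and 52.5 irradiated. Its log2 fold change was 0.02 (SE 0.11), with a 95% interval from -0.22 to 0.26. Atic, which catalyses the last steps to inosine monophosphate, stood between 12.9 and 14.3 CPM untreated and between 12.4 and 15.7 irradiated, a log2 fold change of 0.05 (SE 0.14).

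Pfas, the amidotransferase of the fourth step, stood at 7.16, 6.99 and 9.14 CPM untreated and at 9.72, 10.3 and 9.76 irradiated. The groups did not overlap, and the log2 fold change was 0.35 (SE 0.17, edgeR adjusted p = 0.355). Ppat, described here after its values were seen, stood at 11.4, 7.87 and 8.41 CPM untreated and at 8.86, 13.5 and 13.0 irradiated. Its groups overlapped, with a log2 fold change of 0.33 (SE 0.19), or 0.51 without untreated replicate 1 and 0.52 without irradiated replicate 1. Ppat and Paics lie head to head on chromosome 5 with 272 exon bases in common on opposite strands, and since the strand setting of the counting was not given in the sources used here, reads in that stretch cannot be assigned with certainty. The same holds for the 19.7% of Gart's exon bases, 8.31% of Ampd2's and 6.11% of Umps's that lie across from an antisense transcript. The log2 fold changes of Gart and Adsl were -0.05 and -0.02.

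In the guanylate branch 0 of 3 genes passed, with 0 at an unadjusted p under 0.05. Impdh1 and Impdh2 encode the rate-limiting enzyme of guanine nucleotide synthesis, and Gmps the enzyme of the next step. Impdh1 stood at 38.8, 37.2 and 43.4 CPM untreated and at 42.1, 39.5 and 42.1 irradiated, a log2 fold change of 0.05 (SE 0.11, 95% interval -0.17 to 0.28). Impdh2 stood at 21.0, 21.2 and 23.7 CPM untreated and at 21.7, 23.5 and 23.7 irradiated, a log2 fold change of 0.06 (SE 0.12). Gmps had a log2 fold change of -0.05, and for each of the 3 the 95% interval lay within 1.5-fold.

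Purine salvage is carried by Hprt, which recycles hypoxanthine and guanine, Aprt, which recycles adenine, and Adk, which phosphorylates adenosine. Of the 3 genes 0 passed, with 0 at an unadjusted p under 0.05. Aprt stood at 3.62, 4.72 and 4.80 CPM untreated and at 5.19, 4.93 and 5.70 irradiated, without overlap. Its 41 to 78 counts per library gave a wide interval around a log2 fold change of 0.27, from -0.22 to 0.75, and the value was 0.15 without untreated replicate 1. Hprt stood between 13.29 and 15.01 CPM untreated and between 14.2 and 18.4 irradiated (log2 fold change 0.13, SE 0.14), or 0.015 without irradiated replicate 2. Adk stood between 14.3 and 17.3 CPM untreated and between 14.7 and 17.4 irradiated (log2 fold change 0.05, SE 0.13).

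Purine interconversion and breakdown were represented by Ampd2 and Ampd3, which deaminate adenylate, Ada, which deaminates adenosine, Nt5e and Nt5c2, which remove phosphate from nucleotides, Gda, which deaminates guanine, and Xdh, which makes uric acid. Of these 7 genes 0 passed, with 0 at an unadjusted p under 0.05, and the median log2 fold change was -0.02. Xdh stood at 13.8, 20.5 and 18.1 CPM untreated and at 15.4, 17.7 and 18.6 irradiated, a log2 fold change of -0.02 (SE 0.15). Ada, an enzyme in high amounts in lymphoid tissue, stood at 5.18, 5.86 and 4.87 CPM untreated and at 4.99, 4.57 and 5.18 irradiated, a log2 fold change of -0.10 (SE 0.22). Both overlapped between the groups. Ampd3, described after its values were seen, had a log2 fold change of 0.67 on 11 to 47 counts per library, with a 95% interval from -0.14 to 1.47, and was at 0.40 without untreated replicate 2. The other 4 genes lay between -0.08 and 0.10, and for Nt5e, at 10 to 28 counts, the interval ran from -0.98 to 1.17.

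De novo pyrimidine synthesis runs through Cad, a protein with the activities of the opening steps, Dhodh, the mitochondrial dehydrogenase, Umps, which makes uridine monophosphate, and the CTP synthases Ctps and Ctps2. Of the 5 genes 0 passed, with 0 at an unadjusted p under 0.05, and the median log2 fold change was 0.16. Umps stood at 8.23, 6.82 and 7.34 CPM untreated and at 8.59, 8.66 and 11.8 irradiated. All irradiated libraries were higher, and the log2 fold change was 0.38 (SE 0.18, edgeR adjusted p = 0.342), or 0.20 without irradiated replicate 3. Cad stood at 19.8, 19.2 and 21.3 CPM untreated and at 22.4, 19.97 and 25.1 irradiated, with overlap, a log2 fold change of 0.16 (SE 0.12), or 0.077 without irradiated replicate 3. Ctps stood between 15.7 and 20.3 CPM untreated and between 16.0 and 22.6 irradiated, a log2 fold change of 0.03 (SE 0.15). The values for Ctps2 and Dhodh were 0.21 (SE 0.20) and -0.10 (SE 0.30).

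Pyrimidine salvage and breakdown gave 0 calls among 5 genes, with 1, Dpyd, at an unadjusted p under 0.05. Dpyd, the rate-limiting enzyme of uracil and thymine breakdown, stood at 13.7, 14.2 and 14.7 CPM untreated and at 17.8, 17.9 and 17.9 irradiated. The irradiated libraries were close to each other and all above the untreated ones, at a log2 fold change of 0.33 (SE 0.13, 95% interval 0.07 to 0.60), which did not pass (edgeR adjusted p = 0.204). Uck2, a uridine and cytidine kinase, stood at 43.4, 41.4 and 35.9 CPM untreated and at 38.8, 35.5 and 44.4 irradiated, and Cmpk1, a pyrimidine monophosphate kinase, at 40.1, 37.4 and 36.5 against 38.4, 33.1 and 37.0. Their log2 fold changes were -0.02 (SE 0.12) and -0.07 (SE 0.11), and both intervals lay within 1.5-fold. Uck1 stood at -0.08, and Upp1, a uridine phosphorylase with 8 to 18 counts per library, could not be resolved, with an interval from -1.14 to 1.05.

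Deoxynucleotide supply had the highest median of the 8 role groups, a log2 fold change of 0.47 over 9 genes, with 7 positive and 2 negative. None of the 9 passed by edgeR with adjustment over all genes, 3 were higher at an unadjusted p under 0.05 against 7.51% of all genes, and DESeq2 and limma-voom called 0. Summed over the 9 genes, the level was 63.1, 68.1 and 71.0 CPM untreated and 87.0, 79.1 and 76.3 CPM irradiated, without overlap. This was not particular to the group. The sum of PRPP supply was at most 32.5 CPM untreated and at least 33.9 irradiated, and that of purine salvage 35.3 and 37.0. For all 41 genes together these values were 555.9 and 564.3, while the sums of the other role groups overlapped.

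Tyms, which makes thymidylate, stood at 2.22, 2.89 and 2.53 CPM untreated and at 5.19, 3.97 and 3.45 irradiated, without overlap. Its log2 fold change was 0.73 (SE 0.29, edgeR adjusted p = 0.226). Rrm1 and Rrm2, the large and the small subunit of ribonucleotide reductase, were singled out after their values were seen. Rrm1 stood at 7.74, 9.71 and 6.80 CPM untreated and at 14.6, 11.2 and 8.89 irradiated, and its log2 fold change was 0.53 (SE 0.19, adjusted p = 0.188). Rrm2 stood at 6.25, 8.31 and 7.07 CPM untreated and at 11.9, 8.90 and 8.12 irradiated, a log2 fold change of 0.43 (SE 0.19, adjusted p = 0.292). For both subunits irradiated replicate 3 fell below the highest untreated library. Of the counts of both subunits Rrm2 held 47.3% ± 3.28 untreated and 45.6% ± 1.83 irradiated (SD, n = 3), shares that overlapped.

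Dctd, which deaminates dCMP on the way to thymidylate, stood at 3.04, 4.20 and 3.27 CPM untreated and at 5.19, 4.33 and 4.92 irradiated, a log2 fold change of 0.47 (SE 0.25). Dck, which phosphorylates deoxycytidine, stood at 3.37, 2.80 and 2.94 CPM untreated and at 3.995, 5.65 and 3.89 irradiated, a log2 fold change of 0.55 (SE 0.27). Neither overlapped between the groups, and neither passed. Tk1, the cytosolic thymidine kinase, stood at 3.37, 2.10 and 2.73 CPM untreated and at 4.99, 3.97 and 2.59 irradiated, a log2 fold change of 0.50 (SE 0.31), or 0.24 without irradiated replicate 1. Tk2, its mitochondrial counterpart, stood at 9.22, 9.88 and 10.2 CPM untreated and at 6.06, 8.42 and 10.9 irradiated (log2 fold change -0.22, SE 0.20), or -0.0088 without that library and -0.46 without irradiated replicate 3. Both overlapped between the groups, and both are described after their values were seen. Dtymk, the next kinase of the thymidylate route, stood between 8.23 and 10.5 CPM untreated and between 7.94 and 10.8 irradiated (log2 fold change -0.06, SE 0.18). Samhd1, which breaks deoxynucleotides down, stood at 19.7, 18.7 and 24.9 CPM untreated and at 24.4, 24.8 and 25.4 irradiated (log2 fold change 0.23, SE 0.12), or 0.15 without untreated replicate 2 and 0.37 without untreated replicate 3.

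Markers of dividing cells and of lymphocytes differed between the same libraries. Of 17 markers of cycling cells, 15 were tested, and 4 rose: Mki67, Mcm2, Mcm3 and Mcm5. Over all genes 0.652% were called higher, the share to set beside the lymphocyte counts below as well. Summed over the 17 markers, replicates 1, 2 and 3 stood at 59.4, 58.1 and 62.8 CPM untreated and at 134.7, 98.4 and 82.9 CPM irradiated. The summed deoxynucleotide genes had the same order in the irradiated libraries but not in the untreated ones. In irradiated replicates 1, 2 and 3 the summed T cell markers stood at 37.0, 50.6 and 39.0 CPM. The B and plasma cell markers stood at 60.2, 56.8 and 58.4, and neither list had that order. Of 10 T cell markers Cd5 and Cd8b1, 2 in all, rose, and their sum was 1.92 to 16.0 CPM untreated and 37.0 to 50.6 irradiated, with Cd3g and Cd8a at 0 in untreated replicate 2. Of 9 B and plasma cell markers 8 were tested and 1, Bank1, rose. Sums over the 9 were 8.22 to 40.4 CPM untreated and 56.8 to 60.2 irradiated, with Cd79a and Cd79b at 0 in untreated replicate 2. Of the 8 tested, 7 were positive and 1, Jchain, was negative, at a log2 fold change of -1.38 (SE 1.24). Jchain held 88, 11 and 5 counts untreated and 13, 10 and 14 irradiated, and Mzb1 was not tested. Lists of other cells differed in direction, with duct cell and skeletal muscle markers lower. Signs were mixed for macrophages and dendritic cells (3 positive, 4 negative), endothelial cells (3 and 3) and fat cells (1 and 5). In each of these mixed lists 0 genes were called, and 2 endothelial markers were higher and 0 lower at an unadjusted p under 0.05. At that threshold 1 macrophage or dendritic cell marker was higher and 1 lower, and 0 fat cell markers passed. Over all genes 7.51% were higher and 7.46% lower at it, shares that also apply to the duct cell markers. All 6 duct cell markers had negative log2 fold changes (median -0.40), 3 of them at an unadjusted p under 0.05 and 0 after adjustment, with sums of 2267 to 2563 CPM untreated and 1840 to 2195 irradiated. All 7 skeletal muscle markers were negative (median -0.74), with 0 called. Of the 7 acinar markers 3 were positive and 4 negative, and 1, Car6, fell, at a log2 fold change of -0.79 (edgeR adjusted p = 0.0329). Over all genes 0.349% were called lower. At an unadjusted p under 0.05, 3 acinar markers were lower and 0 higher, against 7.46% and 7.51% of all genes. The irradiated libraries lay below the untreated ones for 3 acinar markers and above for 0, against 10.6% of all genes in each direction. The part of any of these cells in the values of the deoxynucleotide genes, of Prps2, or of Entpd3, Guk1 and Upb1 below was not tested. Without irradiated replicate 1, the library highest in cycling markers, the median log2 fold change of the 9 deoxynucleotide genes was 0.25, and those of Tyms, Rrm1 and Rrm2 were 0.54, 0.31 and 0.24. Without irradiated replicate 2 the median was 0.48.

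**Figure D4:**
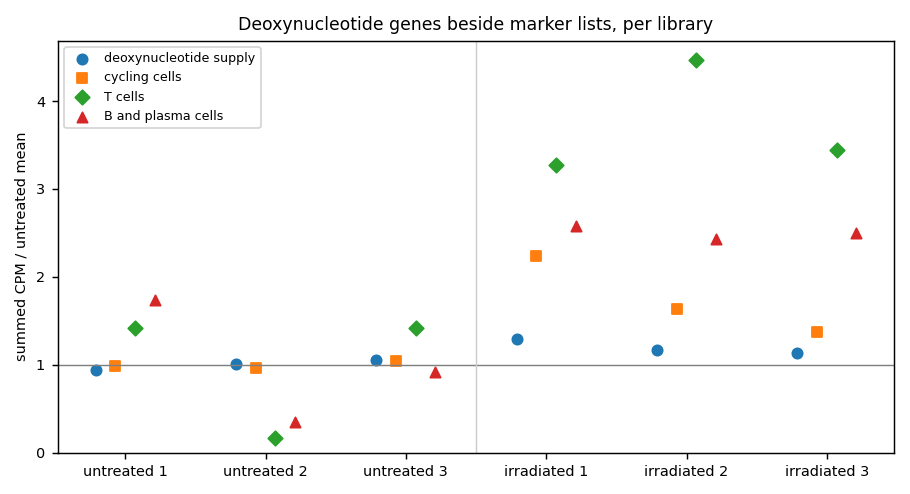
Summed CPM of the 9 deoxynucleotide supply genes (circles) and of 3 marker lists (cycling cells, squares; T cells, diamonds; B and plasma cells, triangles) in each library, divided by the mean of the untreated libraries. The deoxynucleotide genes reach 1.29, 1.17 and 1.13 in irradiated replicates 1, 2 and 3, and the cycling markers 2.24, 1.64 and 1.38.

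Upstream stretches of 3 of these genes are shown because their values were higher in the irradiated libraries. They are the 100 bases before the RefSeq starts (build GRCm38.p6), 5′ to 3′, at chr7:102441595-102441694 (plus strand) for Rrm1, chr5:30073626-30073725 (minus strand) for Tyms and chr8:48109858-48109957 (plus strand) for Dctd, with motif matches in capitals as above.
Rrm1: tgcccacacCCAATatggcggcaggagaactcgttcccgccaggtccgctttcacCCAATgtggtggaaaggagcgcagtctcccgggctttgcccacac
Tyms: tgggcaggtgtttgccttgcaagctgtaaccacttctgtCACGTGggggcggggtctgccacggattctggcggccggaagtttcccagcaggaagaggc
Dctd: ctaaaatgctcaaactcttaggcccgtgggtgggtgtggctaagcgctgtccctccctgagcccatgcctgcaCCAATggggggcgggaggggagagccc
Rrm1 holds a pair of CCAAT boxes with first bases at -91 and -45, and Rrm2, whose stretch overlaps an annotated exon and is not printed, holds 1 at -50. Dctd has several listed starts, and the stretch shown holds 1 CCAAT at -27. The same site lies at -82 from another listed start, and the stretch before a further one, chr8:48098992-48099091, holds none of the motifs. Tyms holds no CCAAT but an E-box at -61. CCAAT was found in 37.4% of all windows and in 33.3% of the 57 windows of the genes studied, and CACGTG in 7.15% and 12.3%. The motif TTTGGCGC was found in 0 of the 57 windows and in 0.515% of all windows, which says only that these letters are not in these windows.

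Other genes of nucleotide metabolism were followed from a separate list of 44 genes, 35 of which passed the filter on low counts. By edgeR 0 of the 35 passed after adjustment, and DESeq2 and limma-voom called 0. At an unadjusted p under 0.05, 1 was higher and 4 were lower, against 7.51% and 7.46% of all genes. The median log2 fold change was -0.03. The groups did not overlap for 2 genes that were higher, Entpd6 and Entpd5, and for 3 that were lower, Entpd3, Upb1 and Guk1, against 10.6% of all genes in each direction, so these counts were not above the background. Entpd3, a membrane ectoenzyme that hydrolyses extracellular nucleotides, stood at 27.9, 21.3 and 18.7 CPM untreated and at 15.9, 14.6 and 16.0 irradiated. Its log2 fold change was -0.54 (SE 0.14, adjusted p = 0.0708), and it passed without untreated replicate 3 (adjusted p = 0.0377).

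Guk1, the guanylate kinase that acts after the guanylate branch, stood at 12.1, 13.6 and 11.4 CPM untreated and at 8.79, 9.62 and 8.37 irradiated, a log2 fold change of -0.47 (SE 0.16, adjusted p = 0.145). Upb1, which acts after Dpyd in pyrimidine breakdown, stood at 9.13, 9.88 and 6.54 CPM untreated and at 5.66, 6.01 and 5.53 irradiated. Its log2 fold change was -0.57 (SE 0.20, edgeR adjusted p = 0.172), opposite in sign to Dpyd. Dpys, a further gene of that breakdown route, held 0, 0 and 0 counts untreated and 1, 1 and 0 irradiated, and was not tested. Entpd6 stood at 7.82, 6.64 and 5.80 CPM untreated and at 8.99, 9.74 and 10.6 irradiated, a log2 fold change of 0.54 (SE 0.18, adjusted p = 0.154), and Entpd5 was at 0.25 (SE 0.14) on the same scale. Rrm2b, the small reductase subunit induced by p53 in many cells and also in the list of p53 targets, stood at 6.09, 7.96 and 5.27 CPM untreated and at 6.92, 6.49 and 7.51 irradiated. Its log2 fold change was 0.13 (SE 0.21, 95% interval -0.30 to 0.55). Of the 13 listed p53 targets 7 rose, against 0.652% of all genes called higher. The choice of Rrm2b was made after its values were seen.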

How the data were processed

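RNA of 6 parotid samples was measured by sequencing. Per gene, the authors deposited raw read counts by Ensembl identifier, in 1 table for each sample, and their tools were bcl2fastq, HISAT2 and HTSeq with build mm10, per the submitters' processing notes. The sources used here give no tool version, annotation release or strand setting. Rows that name no gene, with 32.4% to 40.7% of the reads, were left out. Symbols, coordinates and transcript lengths came from GENCODE M21, which matched 52403 of 52636 genes, and levels per kilobase used the longest protein-coding transcript. Reads aligned to several places, 13.3% to 18.4% of each library, are not in gene rows, so genes with near-identical copies can be undercounted.

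Groups were compared with edgeR 4.0.16 (R 4.3.3): quasi-likelihood test with robust shrinkage, TMM normalisation, filterByExpr with a minimum count of 10, and Benjamini-Hochberg adjustment at 0.05 over 12885 genes, among which all 41 matched genes were tested. Each SE is the absolute log2 fold change over the root of its F statistic, and 95% intervals follow from it. DESeq2 1.42.0 and limma-voom 3.58.1 were alternatives, and the procedure was tested on simulated data. The correction for length and GC content used a loess offset per library. Genes described in full are those called, those without overlap between groups and the 2 most abundant per kilobase in each role group. Others are named as chosen after their values were seen. The members, lists and tests were chosen with earlier results of these data known. Promoter windows came from RefSeq (GRCm38.p6).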

Additional observations from a re-analysis of the deposited data

How the results depend on the processing

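Among 16 alternative settings, 7 kept the 1 call among the 41 genes (Prps2). The count was 0 with limma-voom, without robust shrinkage, with the length and GC correction, and with the replicate number as a block, alone or with that correction, and ran from 0 to 1 when 1 library was left out. The cause was not tested. The labels do not say that a replicate number marks a shared litter, day or batch, so the numbers were taken as names only. Deviations of same-numbered libraries had correlations of 0.020, -0.111 and -0.107. With 3 libraries per group, each centred on its group mean, these values cannot decide whether a number marks a batch. With the replicate block the log2 fold change of Prps2 was 0.65. The calls over all genes were then 39 higher and 14 lower, against 84 and 45 without the block. In the other list the count was 0 except for 1, Entpd3, without a count filter, and ran from 0 to 1 when 1 library was left out. Called genes over all genes were 21 and 5 without robust shrinkage, 20 and 5 with limma-voom, 260 and 22 with library totals alone, and 279 and 239 without a count filter. With 1 library left out they ran from 31 to 83 higher and 14 to 72 lower, both lowest without irradiated replicate 1.

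Of 36 genes followed singly, 24 kept 1 sign in all settings and 12 changed sign in at least 1. With library totals alone, which moved the median of all genes to 0.14, log2 fold changes were 0.0064 for Prps1, 0.11 for Prpsap1, 0.040 for Ada, 0.13 for Xdh, 0.12 for Uck2, 0.075 for Cmpk1 and 0.077 for Dtymk. The length and GC correction gave 0.078 for Prpsap1 and 0.071 for Dtymk, and 0.091 and 0.061 with the replicate block. With 1 library left out the values ran from -0.17 to 0.097 for Prpsap1, -0.043 to 0.12 for Paics, -0.045 to 0.14 for Atic, -0.023 to 0.12 for Adk, -0.16 to 0.10 for Xdh, -0.15 to 0.13 for Ctps, -0.12 to 0.049 for Uck2, -0.23 to 0.029 for Dtymk and -0.0046 to 0.30 for Rrm2b. The median of the deoxynucleotide genes was positive in all settings, from 0.25 to 0.61. Depth limits Upp1, Nt5e and Ampd3 most.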
